A study of Mus musculus with 2 samples.

Results

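The cells described here are capillary endothelial cells of the mouse heart that carried at least 1 UMI of Apln, Aplnr or Mest. UMIs are the molecular barcodes by which captured transcripts were counted. There were 499 such cells, 174 from mouse 1 and 325 from mouse 2, out of 14099 barcodes in the 2 count tables, 2230 endothelial barcodes and 1632 capillary barcodes. Both mice were wild-type C57BL/6 animals of 10 to 12 weeks, 1 library each, in a single group with no treatment. The ventricles were digested without the atria, myocytes were spun out, and live non-myocytes were sorted by exclusion of a dead-cell dye before droplet capture with the version 2 chemistry of the 3' kit. Vessels of all sizes in the ventricle wall can therefore contribute.

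Members were selected on UMI counts alone, so the genes used by the selection are given as a description and were not tested. A barcode needed at least 500 UMIs with at most 10% from mitochondrial genes, and at least 2 UMIs of Pecam1, Cdh5 and Egfl7 together. It could have at most 3 UMIs of C1qa, C1qb and C1qc together and at most 3 of Dcn. It had to have 0 UMIs of the endocardial genes Npr3 and Cytl1 and 0 of the arterial genes Gja5, Gja4, Sema3g and Fbln5, at most 1 of the venous genes Nr2f2 and Vwf, at least 1 of the capillary gene Gpihbp1 and at most 1 of Hey1 and Btnl9 together. The last condition was at least 1 UMI of Apln, Aplnr and Mest together. These cells are called marker-positive capillary cells below. They were set against 3 other groups from the same hearts. Venous-like cells (55 in mouse 1 and 47 in mouse 2) had at least 2 UMIs of Nr2f2 and Vwf. Marker-negative capillary cells (425 and 531) passed every condition but the last. Hey1 Btnl9 capillary cells (91 and 86) passed the capillary conditions with at least 2 UMIs of Hey1 and Btnl9. Arterial-like cells (49 and 52, at least 2 UMIs of the arterial genes), fibroblast-gated barcodes (at least 10 UMIs of Dcn) and macrophage-gated barcodes (at least 10 of the C1q genes) serve for levels only.

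Apelin, the peptide encoded by Apln, acts on the G protein-coupled receptor encoded by Aplnr, which couples to inhibitory G proteins and beta-arrestins. In the developing retina and in tumours of mice, Apln marks endothelial tip cells at the front of a growing vessel, and Aplnr is known from veins and from capillaries next to them. Mest is an imprinted gene that is expressed from the paternal copy. Gpihbp1 encodes the anchor that holds lipoprotein lipase on the luminal face of capillaries. In GRCm38, Apln lies at chrX:48025146-48034853 on the minus strand, Aplnr at chr2:85136225-85139923 on the plus strand, Mest at chr6:30723547-30748465 on the plus strand and Gpihbp1 at chr15:75596628-75599481 on the plus strand.

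Marker-positive cells made up 18.4% of endothelial barcodes in mouse 1 (exact 95% binomial interval 16.0 to 21.0) and 25.3% in mouse 2 (22.97 to 27.8). The mean over the animals was 21.9% ± 4.92 (SD, n = 2). Of capillary barcodes they made up 25.2% in mouse 1 (22.02 to 28.6) and 34.5% in mouse 2 (31.5 to 37.6), which averaged 29.9% ± 6.56 (SD, n = 2). Mouse 2 had the larger share with either denominator. The share depends on depth, because a cell with more UMIs has more chances to show a rare transcript. Marker-positive cells had a median of 1788 UMIs in mouse 1 and 1600 in mouse 2, against 1345 and 1286 in marker-negative capillary cells.

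The name Apln or Aplnr positive fits these cells mainly through the receptor. Aplnr was detected in 148 of 174 marker-positive cells of mouse 1 (85.1%) and 303 of 325 of mouse 2 (93.2%). Apln was detected in 13 (7.47%) and 27 (8.31%) of them, and Mest in 28 (16.1%) and 36 (11.1%). Mest was the only one of the 3 genes in 17 cells of mouse 1 and 13 of mouse 2, and Apln in 8 and 9. All 3 genes were seen together in 0 cells of mouse 1 and 8 of mouse 2. Most members stood at the edge of the rule: 123 cells in mouse 1 (70.7%) and 192 in mouse 2 (59.1%) held exactly 1 UMI of the 3 genes. Cells just inside that edge had a median of 1597 UMIs in mouse 1 and 1511.5 in mouse 2, and the cells just outside it are the marker-negative group. A further 8 and 19 capillary cells held a UMI of the 3 genes but went to the Hey1 Btnl9 group. At the other limits of the rule, 24 and 53 members had exactly 1 Gpihbp1 UMI, and 12 and 40 cells just outside had 0. Exactly 1 UMI of Hey1 and Btnl9 was held by 38 and 45 members, and exactly 2 by 6 and 14 cells just outside, while 21 and 36 members had exactly 1 UMI of Nr2f2 and Vwf and 9 and 8 cells just outside had 2.

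Aplnr was also seen outside the selected cells. Over the whole capillary gate, from which the members were taken, it was found in 22.6% of cells of mouse 1 and 33.7% of mouse 2. It was found in 23.6% of venous-like cells of mouse 1 and 31.9% of mouse 2, in 8.79% and 16.3% of Hey1 Btnl9 capillary cells, in 5.56% and 3.03% of endocardial-like cells, and in 0 of 49 and 0 of 52 arterial-like cells, which allows shares of up to 6.12% and 5.77% by a limit of 3 counts. The marker-negative group has none by the rule. Venous-like cells were deeper than the whole capillary gate, at a median of 1863 and 1793 UMIs, against 1437 and 1385, so these shares are not at equal depth. With every cell thinned to 1000 UMIs, the shares were 7.27% and 19.6% in venous-like cells and 5.62% and 9.33% in Hey1 Btnl9 capillary cells. In the rest of the capillary gate, Aplnr was then found in 83 of 170 and 187 of 297 members. By the rule it was found in 0 of 387 and 0 of 423 marker-negative cells. Aplnr was rarer in barcodes gated as other cells. Of fibroblast-gated barcodes, 0.239% and 0.427% held an Aplnr UMI, at a median of 2736 and 2471 UMIs. Of macrophage-gated barcodes, 0.839% and 1.15% did, at 2817 and 2582 UMIs. Whether these UMIs came from free RNA in the droplets was not tested. In marker-positive cells the Aplnr level was 545 CPM in mouse 1 and 808 CPM in mouse 2, where CPM is the UMIs of a gene per 1000000 UMIs of the summed cells. Gpihbp1 itself stood at 2313 and 2404 CPM, against 3369 and 3092 CPM in marker-negative and 3874 and 3172 CPM in Hey1 Btnl9 capillary cells, and 1311 and 1543 CPM in venous-like cells. It was therefore lower than in the other capillary groups and higher than in venous-like cells, as a description of a gene the rule used. Arterial-like cells had 2364 and 1808 CPM of Gpihbp1, above marker-positive cells in mouse 1 and below them in mouse 2. Endocardial-like cells had 140 and 109 CPM.

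All 10 capillary markers outside the rule were detected. Fabp4, which binds fatty acids inside the cell, stood at 23856 CPM in mouse 1 and 26493 CPM in mouse 2, the fatty acid transporter gene Cd36 at 3593 and 3217 CPM, and the water channel gene Aqp1 at 3830 and 3814 CPM. All 9 pan-endothelial markers outside the rule were detected as well. Of the venous markers outside the rule, Nrp2 stood at 494 and 426 CPM, Ephb4, the receptor of ephrin B2, at 112 and 85.1 CPM, Tmem252 at 47.5 and 0 CPM and Lrg1 at 19.6 and 3.34 CPM. Of the arterial ones, Stmn2 stood at 61.5 and 180 CPM and Efnb2 at 30.7 and 28.4 CPM, and of the lymphatic ones Flt4 had 25.1 and 26.7 CPM, Lyve1 16.8 and 6.68 CPM and Ccl21a 8.38 and 15.0 CPM. These lists were thus present in part. The arterial genes Hey2 and Bmx, the venous genes Selp and Ackr1, the lymphatic genes Prox1, Pdpn and Mmrn1, and all T cell and red cell markers counted had no UMI in either mouse. The summed level of the 10 cardiomyocyte markers was 833 CPM in mouse 1 and 305 CPM in mouse 2, of 6 macrophage markers 570 and 558 CPM, of 7 fibroblast markers 327 and 315 CPM, of 8 pericyte markers 201 and 182 CPM, and of 4 neutrophil markers 142 and 8.35 CPM. The same sums in marker-negative capillary cells were 1086 and 424 CPM for cardiomyocytes, 654 and 612 CPM for macrophages, 339 and 364 CPM for fibroblasts, 437 and 367 CPM for pericytes and 595 and 2.71 CPM for neutrophils. No lymphatic-marker barcode (at least 3 UMIs of Mmrn1, Prox1 and Ccl21a) fell among the marker-positive cells, against 4 in mouse 1 and 6 in mouse 2 among marker-negative cells. The libraries shared 65 barcodes, none of which was a member in both. Scrublet called 405 and 248 doublets among the kept barcodes, none of them a member.

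Next, the position of the marker-positive cells among all endothelial cells was read from clusters built without any gene of the rule. They formed no cluster of their own. Of 13 clusters, the pair that held most venous-like cells (87.3% of them in mouse 1 and 76.6% in mouse 2) took in 36.2% of marker-positive cells in mouse 1 and 35.7% in mouse 2. The same pair held 26.4% and 14.7% of marker-negative capillary cells, 9.89% and 0% of Hey1 Btnl9 capillary cells and 0% of arterial-like cells in both mice. Endothelial cells outside all of these gates (117 and 209) were there in 35.0% and 28.7% of cases, close to the marker-positive share. The cluster that held most arterial-like cells (85.7% and 80.8%) took in 2 of 174 and 6 of 325 marker-positive cells, which is 1.15% and 1.85%. It held 12.9% and 9.79% of marker-negative cells and 42.9% and 41.9% of Hey1 Btnl9 capillary cells, and 29.9% and 27.8% of the endothelial cells outside the gates. The 2 venous-rich clusters divided by animal: 1 held 32.2% of the marker-positive cells of mouse 1 and 4.0% of those of mouse 2, and the other 4.02% and 31.7%. These shares describe the cells at 1 clustering setting (Leiden resolution 1) and were not tested. At resolution 0.5, the cluster with the largest number of marker-positive cells held 37.9% of them in mouse 1 and 51.1% in mouse 2. It also held 35.3% and 60.5% of marker-negative cells and 26.4% and 39.5% of Hey1 Btnl9 capillary cells, but 0% and 2.13% of venous-like cells.

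**Figure D1:**
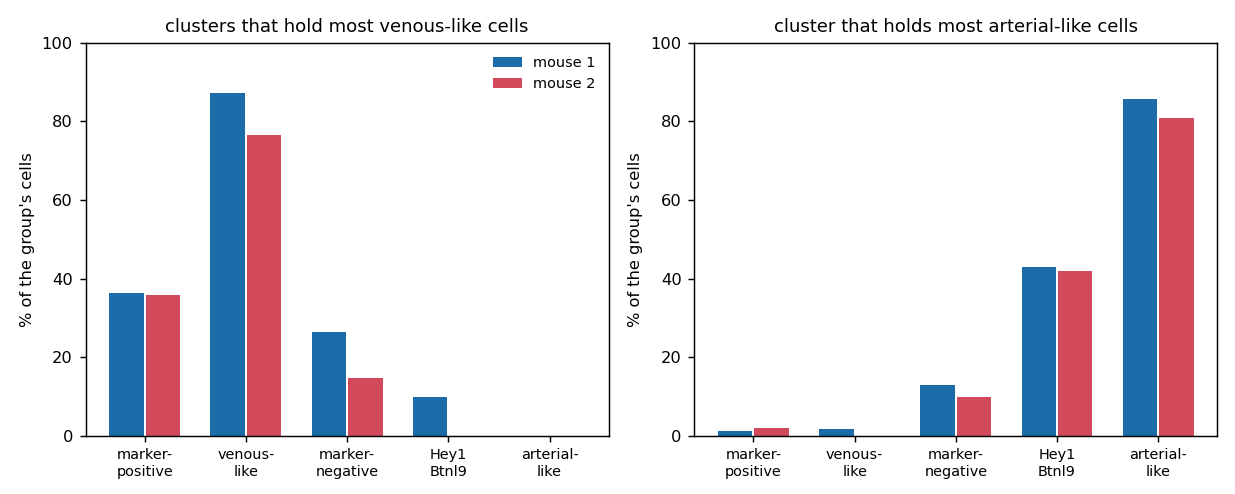
Share of each group's cells (y axis, percent) in the pair of clusters that held most venous-like cells (left) and in the cluster that held most arterial-like cells (right), with 1 bar per mouse. Marker-positive cells stand at 36.2% and 35.7% on the left and at 1.15% and 1.85% on the right, below marker-negative and Hey1 Btnl9 capillary cells on the right in both mice.

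Against Hey1 Btnl9 capillary cells, marker-positive cells had less Rbp7, Cxcl12, Efnb2 and Smad6 and more Cd9, Aqp1 and Emp1. Summed UMIs per group and mouse were tested with edgeR's quasi-likelihood F test, with the mouse as a block and Benjamini-Hochberg adjustment over the 4712 genes tested. Genes counted as changed when the adjusted p was below 0.05 and the log2 fold change was 0.5 or more in size. Because Hey1 and Btnl9 set this contrast, genes that vary together with them were in part chosen by the gate. By this rule 64 genes differed (1.36% of those tested), 24 higher in marker-positive cells (0.509%) and 40 lower (0.849%). The call rests on 2 animals and a spread shared across genes with 3 residual degrees of freedom. Without the mouse block 3 genes passed, with DESeq2 20, and in cells of at least 2000 UMIs 9. With no filter on low counts 49 were higher and 40 lower.

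Rbp7, a gene for a cellular retinol-binding protein, had the smallest adjusted p of the genes tested. Rbp7 had 332 CPM in mouse 1 and 367 CPM in mouse 2 in marker-positive cells, against 1746 and 1779 CPM in Hey1 Btnl9 capillary cells. The groups did not come near each other in either animal, and the log2 fold change was -2.33 (SE 0.13, edgeR adjusted p = 3.18e-14). It was called under each of the 12 alternative settings in which it was tested. Rbp7 was also lower than in marker-negative capillary cells, which had 925 and 781 CPM (log2 fold change -1.29, SE 0.12, edgeR adjusted p = 1.68e-08). Venous-like cells had 228 and 325 CPM, which did not differ from marker-positive cells by the test (log2 fold change 0.42, SE 0.23, edgeR adjusted p = 0.401). Arterial-like cells had 3014 and 3771 CPM, the highest level of the 5 groups in both mice.

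The start region of Rbp7 is shown because that gene had the smallest adjusted p, and that of Apln because it names the cells. Both are given 5′ to 3′ on the gene's strand from 250 bases before to 50 after the annotated start (RefSeq, GRCm38.p6), Apln at chrX:48034804-48035103 on the minus strand and Rbp7 at chr4:149454919-149455218 on the minus strand. Capitals mark the letters TGGGAA or their reverse complement TTCCCA, the core of sites bound by the Notch cofactor RBPJ.
Apln: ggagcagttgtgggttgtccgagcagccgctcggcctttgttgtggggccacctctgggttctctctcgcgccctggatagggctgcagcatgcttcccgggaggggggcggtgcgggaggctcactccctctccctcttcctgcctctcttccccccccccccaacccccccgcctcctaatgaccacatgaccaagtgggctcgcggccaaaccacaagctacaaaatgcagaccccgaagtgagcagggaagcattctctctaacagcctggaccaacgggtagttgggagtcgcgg
Rbp7: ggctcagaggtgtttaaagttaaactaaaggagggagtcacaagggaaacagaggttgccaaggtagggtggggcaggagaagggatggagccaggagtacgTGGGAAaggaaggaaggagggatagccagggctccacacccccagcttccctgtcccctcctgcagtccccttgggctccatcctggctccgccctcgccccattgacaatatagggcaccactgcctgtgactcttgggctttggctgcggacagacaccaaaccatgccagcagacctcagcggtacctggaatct
The motif was present once in the Rbp7 window and absent from the Apln window, and 25.5% of the 27025 promoters in the table held it. Of the genes named below with a window in the table, it was present in 4 of 8 that were higher and 2 of 8 that were lower than in Hey1 Btnl9 capillary cells. Against marker-negative cells it was present in 1 of 7 that were higher and 3 of 7 that were lower. The motif was chosen with the results known, and a match is a description of these letters only.

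Of the 40 lower genes, 6 were on the list of Notch signalling and arterial fate. That list had 21 tested genes, of which 6 were lower (Cxcl12, Efnb2, Notch1, Sox17, Sox18 and Tm4sf1) and 0 higher. The list's median log2 fold change was -0.65, against -0.0055 over all genes tested. Cxcl12, the ligand of the chemokine receptor Cxcr4, had 721 and 941 CPM in marker-positive cells, against 1475 and 2937 CPM in Hey1 Btnl9 capillary cells (log2 fold change -1.39, SE 0.14, edgeR adjusted p = 8.66e-08). The mice lay far apart for Cxcl12 in the Hey1 Btnl9 group, but both values there exceeded both values of marker-positive cells. Efnb2, the arterial ephrin, was low in marker-positive cells at 30.7 and 28.4 CPM, against 98.3 and 117 CPM (log2 fold change -1.92, edgeR adjusted p = 0.00282). Sox17, a transcription factor of arterial fate, had 190 and 192 CPM, against 416 and 317 CPM, and the receptor gene Notch1 had 81.0 and 78.5 CPM, against 179 and 159 CPM. The mice of the groups did not overlap for any of these 4 genes, which also held, in this direction, for 16.6% of all genes tested. Because the Hey1 Btnl9 group was gated on Hey1, a direct Notch target, Hey1 itself is no result here.

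On the BMP and TGF-beta list, 3 of 15 tested genes were lower and 0 higher, with a median of -0.50. The inhibitory SMAD gene Smad6 had 16.8 and 11.7 CPM in marker-positive cells, against 63.6 and 89.6 CPM, the BMP target Id1 had 1388 and 1449 CPM, against 2070 and 2482 CPM, and the co-receptor gene Eng had 550 and 479 CPM, against 734 and 876 CPM. Among fatty acid and lipoprotein genes, 3 of 17 were lower and 0 higher. These were Mgll, which encodes monoglyceride lipase, at 1022 and 1205 CPM, against 2030 and 2248 CPM, the glycerol channel gene Aqp7 at 170 and 267 CPM, against 364 and 662 CPM, and the lipid droplet coat gene Plin2. Fabp4 and Cd36 did not pass (log2 fold changes -0.21 and -0.27, edgeR adjusted p = 0.267 and 0.211). On the vasoactive list, the endothelin gene Edn1 and the plasminogen activator gene Plat were lower and Aqp1 was higher, of 18 tested. Further genes with large decreases were the phosphatase gene Alpl at 8.38 and 10.0 CPM, against 52.0 and 62.1 CPM, Tm6sf1, Camk2n1, Ttll7 and the glutamine synthetase gene Glul. Glul had a log2 fold change of -1.41, but 0.020 in cells of at least 2000 UMIs.

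The genes that were higher than in Hey1 Btnl9 capillary cells were led in level by Aqp1 and Cd9. Aqp1 had 3830 and 3814 CPM, against 1781 and 1234 CPM (log2 fold change 1.32, SE 0.12, edgeR adjusted p = 6.93e-09). Cd9, a tetraspanin of the cell surface, had 1291 and 1249 CPM, against 532 and 434 CPM (log2 fold change 1.39, SE 0.15, edgeR adjusted p = 1.48e-07), and was called under each of its 12 alternatives. Emp1, which encodes an epithelial membrane protein, had 246 and 140 CPM, against 69.4 and 48.3 CPM (log2 fold change 1.68, edgeR adjusted p = 0.00203). For these 3 genes the groups did not overlap, as was so in this direction for 20.5% of all genes tested. Lower-abundance genes with large increases were Prg4, Ecm2, Tsnax, Klk8, Slfn2, H2-Q6 and Ltc4s. Reads of H2-Q6 can fall on near-identical class I genes, so its value is uncertain. Ltc4s rested on 65 UMIs in marker-positive cells and 4 in Hey1 Btnl9 capillary cells, a ratio of 5.40 with an exact 95% interval of 2.01 to 20.4, and macrophage-gated barcodes held it at 449 and 489 CPM. The immediate early genes Egr1 and Ier3 were higher, 2 of 27 tested on their list. On the venous list 0 of 16 tested genes were called in either direction, with a median of 0.60. Of those, 4 had an unadjusted p below 0.05 and DESeq2 called 0.

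**Figure D2:**
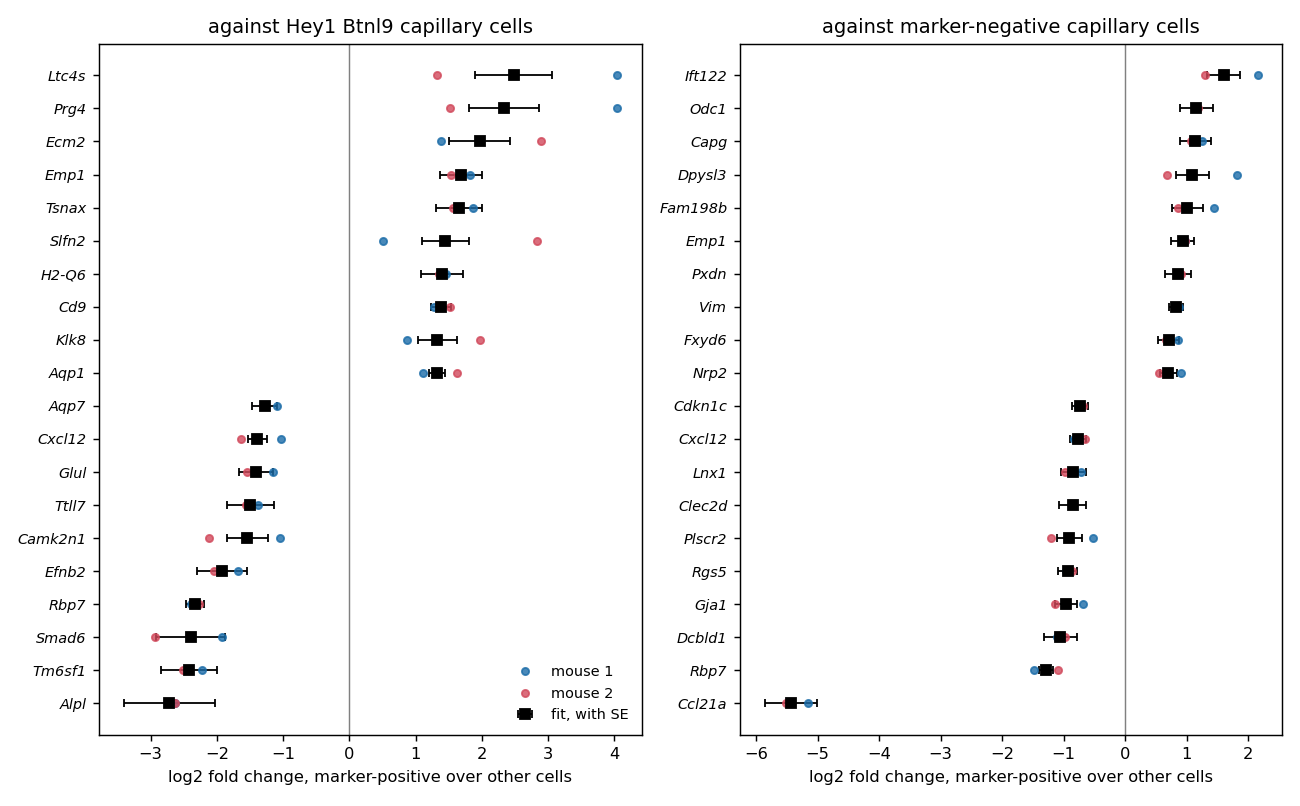
Log2 fold change (x axis) of the named genes, marker-positive over Hey1 Btnl9 capillary cells (left) and over marker-negative capillary cells (right), with black squares and SE for the edgeR fit and dots for each mouse's ratio of CPM. Rbp7 lies at -2.33 on the left and -1.29 on the right, with both mice close to the fit, while Ltc4s, Prg4 and Slfn2 differ widely between mice.

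The closest neighbours are the marker-negative capillary cells, which differ from the selected cells only in having no Apln, Aplnr or Mest UMI, and which were shallower (the median depths are given above). Here 39 of 4712 genes differed (0.828%), 15 higher in marker-positive cells (0.318%) and 24 lower (0.509%). The count was 1 without the mouse block, 7 with DESeq2, 23 after thinning every cell to 1000 UMIs and 87 when only these groups were fitted. The grouping rests on detection: at these depths a cell with no UMI of the 3 genes may still express them.

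Genes lower than in marker-negative cells included several capillary genes. On the list of Notch signalling and arterial fate, 1 of 21 tested genes was lower (Cxcl12) and 0 higher, with a median of -0.30. On the capillary list, 4 of 28 tested genes were lower (Cd300lg, Cdkn1c, Cxcl12 and Rgcc) and 0 higher. Rbp7 is given above. Cxcl12 had 721 and 941 CPM, against 1286 and 1480 CPM (log2 fold change -0.77, SE 0.13, edgeR adjusted p = 8.77e-04). Cdkn1c, an imprinted cell cycle inhibitor, had 257 and 414 CPM, against 440 and 664 CPM, with no overlap between the groups, a state found in this direction for 14.0% of all genes tested. Cd300lg, a surface glycoprotein of capillaries and venules that binds lymphocytes, had 397 and 407 CPM, against 530 and 696 CPM. The gap junction gene Gja1 had 115 and 86.8 CPM, against 184 and 192 CPM. Rgs5, a pericyte gene, had 159 and 145 CPM, against 311 and 264 CPM (log2 fold change -0.94), and -0.64, still called, once barcodes with at least 3 UMIs of mural or lymphatic markers were left out. The lymphatic chemokine gene Ccl21a had 8.38 and 15.0 CPM, against 299 and 685 CPM (log2 fold change -5.44). Ccl21a has near-identical copies, and the 4 and 6 lymphatic-marker barcodes of the marker-negative group move with it. It fell below the filter on low counts once they were left out.

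There were 15 genes higher than in marker-negative cells, against 0 in cells of at least 2000 UMIs and 0 without the mouse block, where 8 and 1 genes were lower. Vim, the intermediate filament gene vimentin, had 1048 and 1422 CPM, against 572 and 802 CPM (log2 fold change 0.83, SE 0.11, edgeR adjusted p = 3.86e-05). The groups did not overlap, as in this direction for 19.6% of all genes tested. Nrp2, a receptor for VEGF and semaphorins that is prominent in veins and lymphatic vessels, had 494 and 426 CPM, against 263 and 290 CPM (log2 fold change 0.70, SE 0.14, edgeR adjusted p = 0.00526). It was also higher than in venous-like cells (log2 fold change 0.84, edgeR adjusted p = 0.0264). Of 16 tested genes on the venous list, 1 was higher than in marker-negative cells (Nrp2) and 1 lower (Lrg1), with a median of -0.094. Emp1 had 246 and 140 CPM, against 126 and 71.8 CPM (log2 fold change 0.94, edgeR adjusted p = 0.00526). On the tip cell and sprouting list, 3 of 32 tested genes were higher (Fscn1, Pxdn and Trp53i11) and 0 lower, with a median of 0.15, against 0.003 over all genes tested. Fscn1 encodes the actin-bundling protein fascin and had 279 and 341 CPM, against 222 and 185 CPM, and Pxdn, which encodes the peroxidase that crosslinks collagen IV, had 109 and 102 CPM, against 60.4 and 54.2 CPM. Against Hey1 Btnl9 capillary cells, 1 of the 32 genes was higher (Trp53i11) and 0 lower. Fscn1 and Pxdn were not called there (log2 fold changes 0.14 and 1.15, edgeR adjusted p = 0.882 and 0.105). Capg, Dpysl3, Odc1, Ift122, Fam198b, Fxyd6 and the fatty acid-binding gene Fabp5 also passed against marker-negative cells. Aqp1, which separated the cells from the Hey1 Btnl9 group, did not (log2 fold change -0.0030, SE 0.10, edgeR adjusted p = 0.997). Cd9 missed the fold threshold at a log2 fold change of 0.45 (edgeR adjusted p = 0.026).

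**Figure D3:**
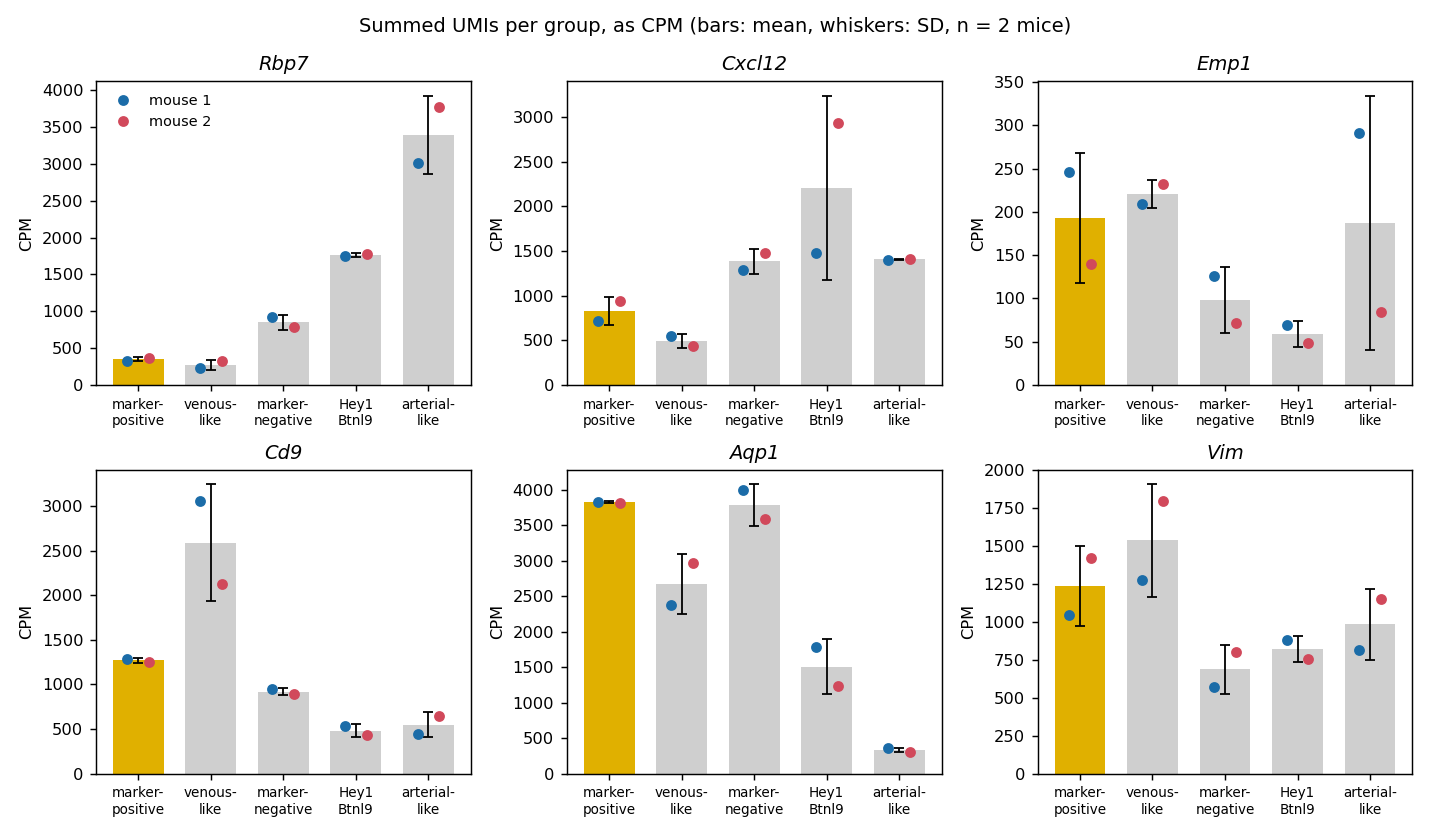
CPM (y axis) of Rbp7, Cxcl12, Emp1, Cd9, Aqp1 and Vim in marker-positive cells and 4 other endothelial groups, with bars for the mean, whiskers for SD (n = 2 mice) and dots for each mouse. Rbp7 in marker-positive cells (332 and 367 CPM) is near venous-like cells (228 and 325 CPM) and below the other 3 groups, whereas Aqp1 is highest in marker-positive and marker-negative cells and lowest in arterial-like cells.

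Against venous-like cells, marker-positive cells had more capillary and less venous transcript, also among genes that the gates did not use. Because Nr2f2, Vwf and, in members, Gpihbp1 set this contrast, genes that vary together with them were in part chosen by the gates. There were 188 of 4712 genes that differed (3.99%), 73 higher in marker-positive cells (1.55%) and 115 lower (2.44%). The count was 68 without the mouse block, 88 with DESeq2, 107 after thinning and 91 in cells of at least 2000 UMIs, and with no filter on low counts the balance turned to 147 higher and 107 lower. On the capillary list 14 of 28 tested genes were higher and 0 lower, with a median of 0.58. On the venous list 10 of 16 were lower and 1 higher (Nrp2), with a median of -1.78. The carbonic anhydrase gene Car4 had 402 and 331 CPM, against 118 and 23.2 CPM, and the VEGF receptor gene Kdr had 511 and 533 CPM, against 182 and 209 CPM. The tight junction gene Cldn5 had 765 and 928 CPM, against 72.9 and 139 CPM (log2 fold change 3.06, SE 0.26, edgeR adjusted p = 2.60e-10). The groups did not overlap for these genes, as in this direction for 20.4% of all genes tested. Fabp4 and Lpl were among 6 of 17 fatty acid and lipoprotein genes that were higher. The collagen IV genes Col4a1 and Col4a2, the laminin gene Lamb1 and Sparc were among 5 of 23 basement membrane and matrix genes that were higher. Mmp15, a membrane-type metalloproteinase gene, had 66 UMIs, against 0 in venous-like cells, at least 4.51-fold higher by a floor of 3 counts over the group.

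The genes lower than in venous-like cells included the leukocyte adhesion gene Vcam1 at 165 and 93.5 CPM, against 1202 and 928 CPM (log2 fold change -3.04, SE 0.18, edgeR adjusted p = 9.43e-14). Plvap, which forms diaphragms of fenestrae and caveolae, had 0 and 1.67 CPM, against 118 and 151 CPM. The protease gene Prss23 had 25.1 and 53.4 CPM, against 401 and 476 CPM, and Calcrl, which encodes the receptor subunit for adrenomedullin and CGRP, had 117 and 103 CPM, against 492 and 534 CPM. For these genes the groups did not overlap, as in this direction for 21.8% of all genes tested. The acute-phase genes Lrg1, Lcn2 and Cp also passed, but the venous-like level itself differed between mice: Lrg1 had 19.6 and 3.34 CPM in marker-positive cells, against 1166 CPM in mouse 1 and 116 CPM in mouse 2, and Lcn2 had 11.2 and 0 CPM, against 820 and 69.6 CPM. The venous-like gate also held other cells, with lymphatic markers summing to 1284 and 1891 CPM there, against 50.3 and 48.4 CPM in marker-positive cells, and pericyte markers to 674 and 696 CPM, against 201 and 182 CPM. Igfbp5 and Stc1, which also lay among the largest decreases, were still called once barcodes with at least 3 UMIs of lymphatic or mural markers were left out, at log2 fold changes of -5.11 and -4.21. Ccl21a, Mmrn1 and Pdgfrb, lower as well, then fell below the filter on low counts.

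Some genes changed sign between the comparisons, which all share the marker-positive cells. Cxcl12, Aqp7 and Sox18 were lower than in Hey1 Btnl9 capillary cells and higher than in venous-like cells. Cdkn1c was lower than in both capillary groups and higher than in venous-like cells, at 173 and 128 CPM there. Cd9 was higher than in Hey1 Btnl9 capillary cells and lower than in venous-like cells, which had 3051 and 2123 CPM. For these genes the marker-positive level thus lay between the venous-like and Hey1 Btnl9 levels in both animals. This follows from choosing genes with opposite signs, and no share over all genes was counted. Other genes went the same way in both comparisons: Aqp1 and Trp53i11 were higher, and Rgs5, Tm4sf1, Ccl21a and Mmrn1 lower. Against venous-like cells, Rgs5, Ccl21a and Mmrn1 did not keep this once barcodes with lymphatic or mural markers were left out.

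Within the apelin system, where the selecting genes were not tested, edgeR called 0 of 19 genes against either capillary group, with medians of 0.12 against Hey1 Btnl9 and 0.049 against marker-negative cells. In each case 3 of the 19 had an unadjusted p below 0.05, and DESeq2 called 0. Of the ligands, Apela had no UMI. Of the enzymes that process or degrade apelin, the convertase gene Furin had 47.5 and 38.4 CPM, against 35.6 and 27.1 CPM in marker-negative cells and 28.9 and 34.5 CPM in Hey1 Btnl9 capillary cells, and the peptidase gene Mme had 2.79 CPM in mouse 1 and 0 in mouse 2. The G protein gene Gnai2 stood at 1081 and 891 CPM, Gnai3 at 83.8 and 66.8 CPM, Gnai1 at 14.0 and 6.68 CPM, Gnaq at 55.9 and 70.1 CPM, Gna11 at 210 and 230 CPM and Gna13 at 50.3 and 60.1 CPM. The arrestin genes Arrb1 and Arrb2 were low, at 22.4 and 13.4 CPM and at 16.8 and 13.4 CPM, and Arrb2 and Gnai1 were too low to be tested. None of the genes downstream of the receptor passed: Klf2 had 2489 and 2976 CPM, Klf4 525 and 801 CPM, the nitric oxide synthase gene Nos3 55.9 and 95.1 CPM, Mef2a 201 and 175 CPM, Mef2c 201 and 292 CPM, Foxo1 64.3 and 71.8 CPM and Ptk2 41.9 and 25.04 CPM. In the related adrenomedullin system, the ligand Adm had 67.1 and 65.1 CPM, and the receptor subunits Ramp2 and Ramp3 had 732 and 910 CPM and 137 and 204 CPM. Calcrl and Hif1a were the 2 genes of the list called against venous-like cells, both lower.

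The proliferation markers summed to 148 and 132 CPM in marker-positive cells, against 20.1 and 37.9 CPM in marker-negative cells. These UMIs of Mki67, Top2a, Birc5, Ccnb1 and Cdk1, genes of dividing cells, came from few cells: 49 of 53 UMIs in mouse 1 lay in 6 cells with at least 3 of them, and 71 of 79 in mouse 2 in 4 such cells. Such cells were 3.45% and 1.23% of marker-positive cells, against 0.235% and 0.377% of marker-negative cells (1 and 2 cells). Of Hey1 Btnl9 capillary cells they were 1.10% and 0% (1 and 0 cells), and of venous-like cells 0% and 2.13% (0 and 1 cells). The markers summed to 0 and 302 CPM in venous-like cells, so share and level were higher there in mouse 2. The limit of 3 UMIs was chosen after the values were seen, and no test was made. A fixed limit is easier to reach in deeper cells. Marker-positive cells were deeper, with medians of 1788 and 1600 UMIs, against 1345 and 1286 in marker-negative cells. The part of depth in these shares was not tested. On the cell cycle list of 19 tested genes the medians were 0.51 against Hey1 Btnl9 and 0.63 against marker-negative cells, but the called genes were both lower: the inhibitor Cdkn1c in both comparisons and the stress-response gene Gadd45g against Hey1 Btnl9 cells. Of 30 interferon-stimulated genes tested, 0 were called against Hey1 Btnl9 cells (3 at an unadjusted p below 0.05, 0 by DESeq2) and 1 against marker-negative cells, the chemokine gene Cxcl10, which was lower. Of 23 basement membrane and matrix genes, edgeR called 0 against either capillary group, with 3 and 5 at an unadjusted p below 0.05 and 0 by DESeq2 in both.

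Among the marker-positive cells, the small Apln-positive subset had more Pgf and Angpt2 than the members with Aplnr and no Apln. It held 13 cells of mouse 1 and 27 of mouse 2, fewer than the 30 per mouse set for a test, so the values are a description. It is compared with the 144 and 285 members that held Aplnr and no Apln. Genes are named here for their size, by a rule chosen after the values were seen: at least 10 UMIs in Apln-positive cells and at least 2-fold higher CPM in each mouse, which 36 of 1796 genes met (2.0%). The UMI minimum was set on the Apln-positive cells themselves, so genes could enter because they were high there, and the count supports nothing. On the tip cell and sprouting list 26 genes reached the UMI minimum. Of these, 6 were among the 36 (Pgf, Angpt2, Adm, Mcam, Plaur and Nid2), and the others were not. With a minimum of 20 UMIs 9 genes were left, of which Pgf and Adm were on that list.

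Pgf, which encodes placental growth factor, a ligand of the VEGF receptor Flt1, headed this order. Pgf had 412 CPM in mouse 1 and 357 CPM in mouse 2 in Apln-positive cells, against 6.75 and 11.9 CPM in Aplnr-positive cells without Apln, a pooled ratio of 37.2 with an exact 95% interval of 17.1 to 92.4. It was seen in 5 of 13 and 7 of 27 Apln-positive cells, against 2 of 144 and 5 of 285 of the others, so several cells in each animal carried it. Angpt2, the angiopoietin released by tip cells, had 137 CPM in both mice, against 20.3 and 15.9 CPM (ratio 7.84, interval 3.46 to 17.7), in 4 of 13 and 6 of 27 cells, against 5 of 144 and 8 of 285. Adm had 240 and 178 CPM, against 50.7 and 41.7 CPM (ratio 4.35, interval 2.39 to 7.72). The 17 and 13 members with Mest alone had 61.1 and 218 CPM of Adm and 61.1 and 87.3 CPM of Pgf, so Adm in mouse 2 was higher there than in Apln-positive cells. The adhesion gene Mcam had 137 and 96.0 CPM, against 30.4 and 25.8 CPM, the urokinase receptor gene Plaur 172 and 96.0 CPM, against 37.2 and 33.8 CPM, and the basement membrane gene Nid2 206 and 68.6 CPM, against 47.3 and 27.8 CPM. The transcription factor gene Mycn had 378 and 288 CPM, against 108 and 83.5 CPM. These intervals cover counting error only.

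Depth and fibroblast transcripts were measured beside that result, and their part in it was not tested. Apln-positive cells were deeper, with a median of 2247 and 2346 UMIs, against 1763.5 and 1582, though CPM is relative to the total. Of fibroblast-gated barcodes, 38.6% and 35.8% held a Pgf UMI and 30.3% and 30.6% an Adm UMI, but 0.179% and 0.171% an Angpt2 UMI. The summed level of 7 fibroblast markers was 206 and 247 CPM in Apln-positive cells, below the 324 and 324 CPM of Aplnr-positive cells without Apln. In Apln-positive cells this sum rested on 6 and 18 UMIs, from 1 and 3 of the 7 markers. Over all marker-positive cells, Gsn alone gave 107 of 117 and 160 of 189 of these UMIs. The sum is thus mostly a level of Gsn. The genes Esm1, Igf2, H19, Dlk1 and Plagl1 had no UMI in any of the subsets.

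**Figure D4:**
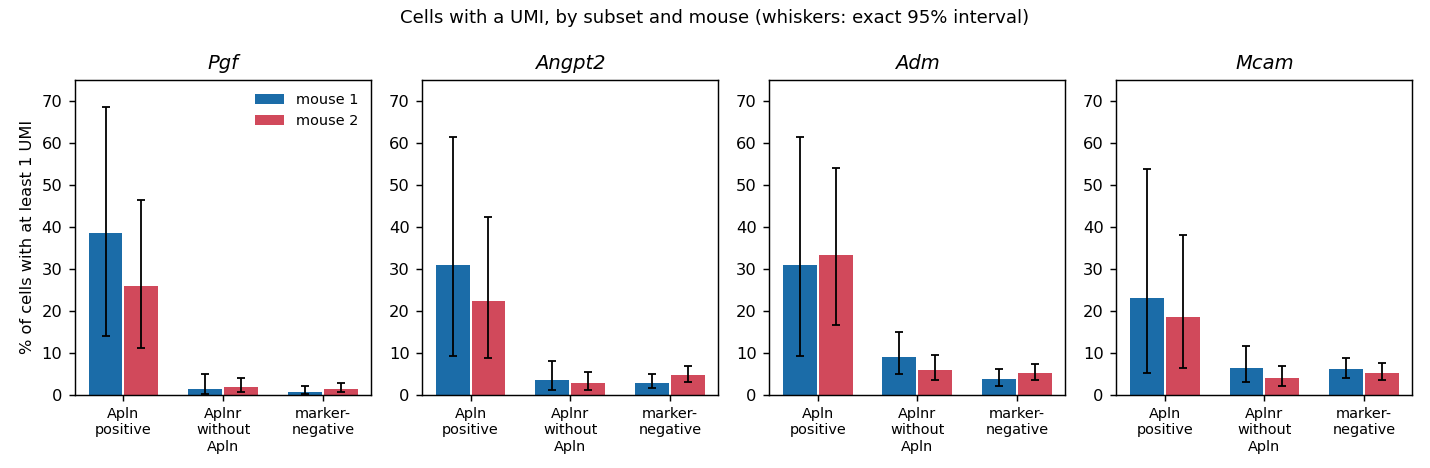
Percent of cells with at least 1 UMI (y axis) of Pgf, Angpt2, Adm and Mcam in Apln-positive cells, Aplnr-positive cells without Apln and marker-negative capillary cells, with 1 bar per mouse and exact 95% intervals. Pgf was seen in 5 of 13 and 7 of 27 Apln-positive cells, and each of the 4 genes has its tallest bar in the Apln-positive cells in both mice.

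Apln and Aplnr, which the selection used, were compared for detection in the same cell as a description. In mouse 2, 66.7% of 27 Apln-positive capillary cells held an Aplnr UMI, against 34.4% of 829 Apln-negative ones. In mouse 1 the shares were 30.8% of 13 and 24.6% of 586. After thinning to 1000 UMIs, they were 33.3% and 25.8% in mouse 2 and 10.0% and 15.0% in mouse 1. The exact intervals of the thinned shares overlap in both mice, as do those of the unthinned Apln-positive shares of the mice. In mouse 2 the unthinned intervals do not, at 46.0 to 83.5 for Apln-positive and 31.1 to 37.7 for Apln-negative cells. Apln-positive cells there had a median of 2346 UMIs, against 1363 in Apln-negative ones.

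Between the mice, marker-positive cells differed by at least 2-fold in CPM for 13 of 959 genes with at least 100 UMIs in 1 mouse (1.36%), 8 higher in mouse 1 (0.834%) and 5 higher in mouse 2 (0.521%). The UMI minimum let genes enter through the mouse where they were high, so the count is a description, and at a minimum of 50 UMIs it was 50. With 1 library per animal these ratios have no replicate check, and animal and library cannot be told apart. Icam1, a leukocyte adhesion gene, had 388 CPM in mouse 1 and 122 CPM in mouse 2 (ratio 3.19, exact 95% interval 2.38 to 4.29). The difference was not particular to these cells: Icam1 had 383 CPM in mouse 1 and 138 CPM in mouse 2 in marker-negative cells, 254 and 48.3 CPM in Hey1 Btnl9 cells and 1047 and 278 CPM in venous-like cells. The heat shock genes Hspe1 and Hsp90aa1, the cell cycle inhibitor Cdkn1a at 2037 and 830 CPM, the lipase gene Lpl at 2347 and 998 CPM (2430 and 1121 CPM in marker-negative cells), the kinase gene Pim3, the sphingosine phosphate receptor gene S1pr1 and 8430408G22Rik completed those higher in mouse 1. Those higher in mouse 2 were the neuronal tubulin regulator gene Stmn2 at 61.5 CPM in mouse 1 and 180 CPM in mouse 2, the class II invariant chain gene Cd74 at 115 and 292 CPM, the interferon-induced GTPase gene Iigp1 at 184 and 454 CPM, Eno1 and Rnf130. Meox2, Fcgrt and Car8 followed below 2-fold, with Meox2 at 173 and 341 CPM.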

How the data were processed

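The authors deposited raw UMI counts per gene symbol and barcode for each mouse, 27998 genes, with no normalization per the file contents. FastQC and Cell Ranger 2.2.0 with mm10 are named in the submitters' processing notes, and how barcodes were chosen is not given in the sources used here. The tables held 7732 and 6367 barcodes with 21355383 and 15174548 UMIs, and 12951 barcodes were kept. Cells were gated on UMIs, and UMIs were summed per group and mouse. Marker-positive cells held 357934 and 599066 UMIs. The sums of 4 endothelial groups entered quasi-likelihood F tests of edgeR 4.0.16 under R 4.3.3, after TMM normalization and filterByExpr, with the mouse as a block, since every group came from the same 2 animals. Genes used by the gates (21) and 13 mitochondrial genes were not tested. SEs derive from the F statistic. The script was tested on simulated counts. Clusters used scanpy 1.11.5 (2000 variable genes, 30 components, 15 neighbours, Leiden resolution 1) without gate, sex-linked, mitochondrial or ribosomal protein genes. Alternatives included DESeq2 1.42.0, depth, gates and filters. Named genes were the 10 called genes with the largest fold in each direction moving alike in each mouse, where the higher group reached 50 CPM in each mouse, up to 4 called genes per list by level, all detected apelin-list genes but 1 that is not reported here, and 8 per direction between mice. Members and lists were chosen with earlier results of these data known. Intervals are exact (Clopper-Pearson) at 95% and cover counting error only; the limit a count of 0 allows is 3 counts.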

Additional observations from a re-analysis of the deposited data

How the results depend on the processing

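Calls against Hey1 Btnl9 capillary cells (64) became 3 with no replicate block for the mouse, 20 with DESeq2, 9 in cells of at least 2000 UMIs, 41 with a log2 floor of 1 and 41 with at least 2 marker UMIs per cell. Against marker-negative cells the 39 calls became 1 with no replicate block, 7 with DESeq2, 8 at 2000 UMIs, 23 thinned, 15 with the floor of 1, 63 with no filter and 87 with the pair of groups alone. Against venous-like cells the 188 became 68 with no replicate block, 88 with DESeq2, 107 thinned and 91 at 2000 UMIs. The other settings stayed within 1.5 times. The share of endothelial barcodes became 7.88% with at least 2 marker UMIs and 35.0% at 2000 UMIs, and ranged from 18.4% to 25.3% with 1 mouse left out; of capillary barcodes these were 10.8%, 52.7%, and 25.2% to 34.5%. Genes past 2-fold between mice became 50 at a minimum of 50 UMIs. The mean share of members in the cluster with the largest number of them was 17.9%, and 44.5% at Leiden resolution 0.5. The cluster at resolution 0.5 was of another kind, with 0% and 2.13% of venous-like cells, against 3.64% and 70.2% in the main setting. The 17.9% came from 4.02% in mouse 1 and 31.7% in mouse 2, so that 1 mouse decides it. Genes 2-fold higher in Apln-positive cells became 9 at a minimum of 20 UMIs, and 135 to 175 with 1 mouse alone (chosen after seeing the data). Glul against Hey1 Btnl9 cells turned to 0.020 at 2000 UMIs, Ccl21a against them ranged from -5.27 to 0.54 with 1 mouse left out, and Rgs5 against venous-like cells to 1.80 once lymphatic- and mural-marker barcodes were left out, a setting chosen after seeing the data; the cause was not tested. No test was run on Apln-positive cells, nor on 1 mouse alone, which leaves no residual degrees of freedom.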
